A study of Rattus norvegicus with 11 samples.

Results

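The genes of the NF-kappa B transcription factor and of its inhibitors were followed in peripheral leukocytes (WBCs) of rats with collagen-induced arthritis (CIA) and of normal healthy rats. They are the 5 subunit genes Nfkb1, Nfkb2, Rel, Rela and Relb, the 3 classical inhibitor genes Nfkbia, Nfkbib and Nfkbie, and the 2 genes of nuclear IkB proteins, Nfkbiz and Bcl3. They were chosen by gene symbol, and each was found on 1 row of a table of 32623 genes, so that 10 of 32623 genes are described.

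NF-kappa B is a family of dimers that sit in the cytoplasm of resting leukocytes, held there by IkB proteins. Signals from Toll-like receptors, interleukin 1 or tumour necrosis factor lead the IkB kinase complex to mark the inhibitors for degradation, and the dimers then enter the nucleus and switch on cytokines, chemokines and survival genes. Several of the genes switched on encode the inhibitors and subunits themselves, which makes their transcripts a common readout of the pathway in neutrophils and monocytes, although activation itself takes place on the protein.

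The samples were poly(A) RNA of WBCs left after lysis of red cells, from male Wistar rats aged 7 weeks at the start and kept in specific pathogen-free housing. CIA was induced with bovine type II collagen in incomplete Freund's adjuvant, with a boost on day 7, and controls were normal healthy rats. The same 4 CIA rats gave the Nampt++ samples at about day 8 and the Nampt+ samples at about day 14 (n = 4 each), and 3 control samples came from other rats (n = 3). The names of the CIA groups stand for high and lower Nampt transcript by PCR, so sampling day and Nampt status cannot be told apart, and no vehicle-treated group is among the samples. Nampt encodes the rate-limiting enzyme of NAD salvage. Its FPKM, the fragments of a gene scaled by transcript length and library total, was 46.5, 10.1, 36.1 and 30.6 for rats 1 to 4 at Nampt++ status, 11.4, 14.3, 27.5 and 36.9 at Nampt+ status, and 20.3, 32.9 and 13.5 in controls 1 to 3. In rats 1 and 3 Nampt was thus higher at Nampt++ status, in rats 2 and 4 it was not, and the Nampt++ sample of rat 2 had the lowest value of the 11. The deposited extraction text speaks of retinas, but 8 retina markers summed to at most 1.93 FPKM in any sample, with Rpe65 and Nrl at 0 throughout, against summed levels of 2171 FPKM or more for 13 neutrophil markers. Total counts ranged from 65340027 to 85819418 reads a sample, of which haemoglobin genes took 6.84% to 42.8%.

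The deposited table places the subunit genes at chr2:240773456-240866689 (Nfkb1, ENSRNOG00000023258), chr1:266053002-266059256 (Nfkb2, ENSRNOG00000019311), chr14:108491069-108509892 (Rel, ENSRNOG00000054437), chr1:220992770-221003249 (Rela, ENSRNOG00000030888) and chr1:80517411-80544825 (Relb, ENSRNOG00000033235). The inhibitors lie at chr6:76267228-76270457 (Nfkbia, ENSRNOG00000007390), chr1:86941074-86948845 (Nfkbib, ENSRNOG00000020063) and chr9:17828408-17835240 (Nfkbie, ENSRNOG00000019907), and the nuclear IkB genes at chr11:47243342-47271487 (Nfkbiz, ENSRNOG00000031163) and chr1:80730499-80744831 (Bcl3, ENSRNOG00000043416). The build of these positions is not given in the sources used here. Bcl3 and Relb are thus near neighbours on chromosome 1.

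As NF-kappa B binds DNA at a 10-base site, the promoters were searched for it, on both strands, from 250 bases before to 50 bases after the RefSeq start (GRCr8 assembly). Promoters were found for 9 of the 10 genes, the exception being Relb. The NF-kappa B consensus stood in 7 of these 9, against 4.18% of all 33469 promoters and 5.32% of the 3781 promoters whose genes averaged 10 FPKM or more. The 7 sites are shown because they are what most of these genes share beyond their names, each with 10 bases on either side, read on the strand of the gene and with the match in capitals.
Nfkbia: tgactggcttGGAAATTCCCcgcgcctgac
Nfkbie: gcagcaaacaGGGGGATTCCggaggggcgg
Nfkbiz: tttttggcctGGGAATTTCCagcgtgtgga
Bcl3: tcggcggcagGGGAAGTCCCgcagcccggc
Nfkb1: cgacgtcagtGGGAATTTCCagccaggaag
Nfkb2: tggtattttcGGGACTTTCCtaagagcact
Rel: cgtaggcagcGGGAAATCCCcccccgttcc

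In GRCr8 the window of Nfkbia is chr6:78597084-78597113 on the minus strand, and its match begins 31 bases before the start. The windows of Nfkbie (chr9:22948017-22948046, minus strand), Nfkbiz (chr11:58251698-58251727, plus strand) and Bcl3 (chr1:88613574-88613603, minus strand) hold matches that begin 164, 13 and 38 bases before the start. In Nfkb2 (chr1:255108344-255108373, plus strand) and Rel (chr14:101922001-101922030, minus strand) the match begins 20 and 82 bases before it, and in Nfkb1 (chr2:226805440-226805469, minus strand) at base 4 of the transcript. In Nfkbia and Bcl3 the consensus is read on the opposite strand, and in Rel 3 overlapping matches share the site. The promoters of Rela, which encodes the main transactivating subunit, and Nfkbib held no match in this window. Among genes known as NF-kappa B targets, 9 of 25 promoters held the consensus (36.0%).

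All 10 genes were well expressed, and their order was led by an inhibitor. Nfkbia encodes IkB alpha, which enters the nucleus and strips NF-kappa B from DNA, and its mean of 1656 ± 959 FPKM (SD, n = 11 samples) placed it between the 19th and the 183rd gene of the table in every sample. It was above every other gene of the family in 11 of 11 samples. Below it came Bcl3 (mean 174 FPKM), Nfkbie (154), Nfkb2 (134), Nfkbib (120), Nfkbiz (105), Rel (93.3), Rela (84.2) and Nfkb1 (67.9), and Relb was lowest with 23.9 ± 11.4 FPKM. Most neighbours in this order changed places between samples, with Bcl3 above Nfkbie in 5 of 11 samples, Nfkbie above Nfkb2 in 7, Nfkb2 above Nfkbib in 7, Nfkbib above Nfkbiz in 8 and Nfkbiz above Rel in 6. Rel was above Rela in 10 of 11 samples and Rela above Nfkb1 in 8, and Relb was below Nfkb1 in 11 of 11. The values rest on 1521 reads (Relb) to 433430 reads (Nfkbia) a sample, and at such depths the rats and not the counting set the precision. FPKM divides by the annotated transcript length, which counts and FPKM imply to be 1450 bases for Nfkbib and up to 4230 for Nfkbiz.

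**Figure D1:**
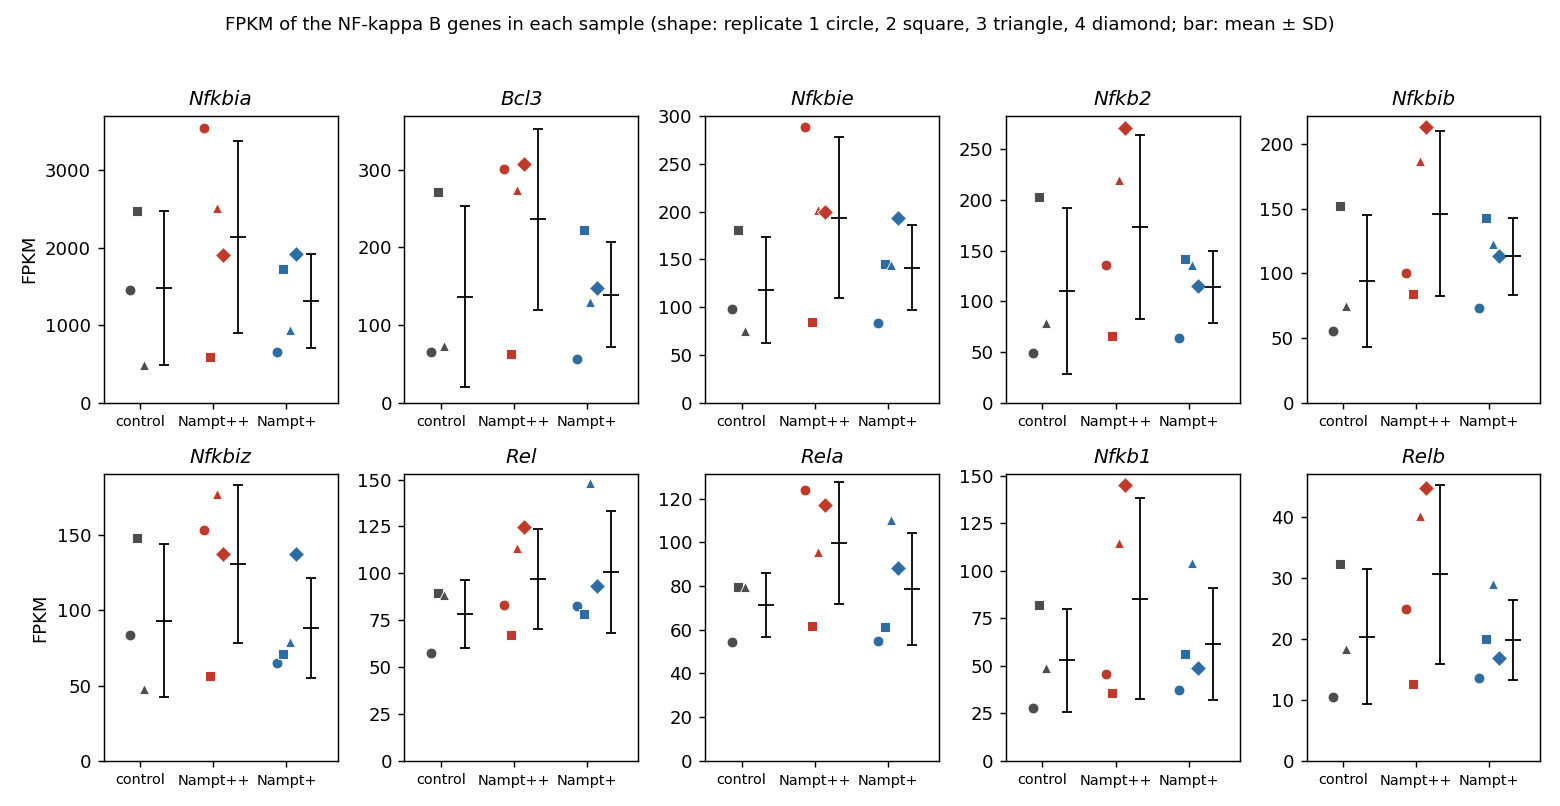
FPKM (vertical axes, linear and starting at 0) of the 10 genes in each control, Nampt++ and Nampt+ sample, with the marker shape giving the replicate number and a bar for the group mean ± SD. The groups overlap in every panel, and the Nampt++ sample of rat 2 (square) lies below the other 3 Nampt++ samples in every gene, at 62.9 FPKM for Bcl3 against 273 to 308.

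Among the subunits, Rela (p65) and Rel (c-Rel) carry the transactivation domains of the classical dimers. Rela was 54.5, 79.7 and 79.5 FPKM in controls 1 to 3, 124, 61.9, 95.5 and 117 FPKM for rats 1 to 4 at Nampt++ status, and 54.6, 61.4, 110 and 88.0 FPKM for the same rats at Nampt+ status. Rel was 57.6, 89.3 and 88.2 FPKM in controls, 83.0, 67.3, 114 and 125 FPKM in Nampt++ samples, and 82.8, 78.4, 148 and 93.3 FPKM in Nampt+ samples. Both genes stayed within a 3-fold range over the 11 samples, Rela peaked in the Nampt++ sample of rat 1 and Rel in the Nampt+ sample of rat 3, and the groups overlapped in both.

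Nfkb1 encodes p105, the precursor of p50, and Nfkb2 encodes p100, the precursor of p52. Nfkb1 was 28.0, 81.9 and 49.0 FPKM in controls, 45.8, 36.0, 115 and 145 FPKM in Nampt++ samples, and 37.2, 56.4, 104 and 48.8 FPKM in Nampt+ samples. Nfkb2 was 49.0, 203 and 78.8 FPKM in controls, 136, 65.5, 220 and 271 FPKM in Nampt++ samples, and 63.4, 141, 136 and 115 FPKM in Nampt+ samples. Relb, the partner of p52 in the alternative pathway, was 10.5, 32.3 and 18.3 FPKM in controls, 24.9, 12.6, 40.02 and 44.6 FPKM in Nampt++ samples, and 13.6, 19.98, 28.9 and 16.8 FPKM in Nampt+ samples. These 3 genes were highest in the Nampt++ sample of rat 4 and lowest in control 1, and control 2 lay above the Nampt++ samples of rats 1 and 2 in each of them.

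Among the classical inhibitors Nfkbia ranged most widely. It was 1460, 2477 and 489 FPKM in controls, 3551, 585, 2513 and 1901 FPKM in Nampt++ samples, and 653, 1725, 942 and 1922 FPKM in Nampt+ samples. The highest value, in the Nampt++ sample of rat 1, and the lowest, in control 3, lay far apart, and a low value stood among the Nampt++ samples as well. Nfkbie (IkB epsilon) was 98.0, 181 and 74.6 FPKM in controls, 289, 84.2, 202 and 199 FPKM in Nampt++ samples, and 83.3, 145, 144 and 193 FPKM in Nampt+ samples, with the same highest and lowest sample as Nfkbia. Nfkbib (IkB beta), the inhibitor linked to persistent NF-kappa B activity, was 55.7, 152 and 74.7 FPKM in controls, 100, 84.0, 187 and 213 FPKM in Nampt++ samples, and 72.9, 143, 123 and 113 FPKM in Nampt+ samples. Its highest and lowest samples were those of Nfkb2, the Nampt++ sample of rat 4 and control 1.

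The nuclear IkB proteins act on chromatin with p50 or p52 dimers rather than in the cytoplasm. Bcl3 was 65.3, 271 and 73.1 FPKM in controls, 301, 62.9, 273 and 308 FPKM in Nampt++ samples, and 56.6, 222, 129 and 148 FPKM in Nampt+ samples. Nfkbiz (IkB zeta), needed for secondary response genes such as Il6 and Lcn2, was 83.6, 148 and 47.5 FPKM in controls, 153, 56.2, 177 and 137 FPKM in Nampt++ samples, and 65.2, 71.0, 79.2 and 138 FPKM in Nampt+ samples. Of the Nampt++ samples, 3 of 4 were above 270 FPKM for Bcl3 and the fourth was below every control.

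Read by sample rather than by gene, the family divided the samples in a way that cut across the groups. The Nampt++ samples of rats 4 and 3 had the highest mean ranks over the 10 genes (2.2 and 2.3, where 1 is the highest of 11 samples), followed by the Nampt++ sample of rat 1 and control 2 (3.9 each). At the other end lay control 1 (9.6), the Nampt+ sample of rat 1 (9.5), the Nampt++ sample of rat 2 (9.4) and control 3 (8.4), in which none of the 10 genes was above its own mean. High and low samples thus occurred among controls and among Nampt++ samples.

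**Figure D2:**
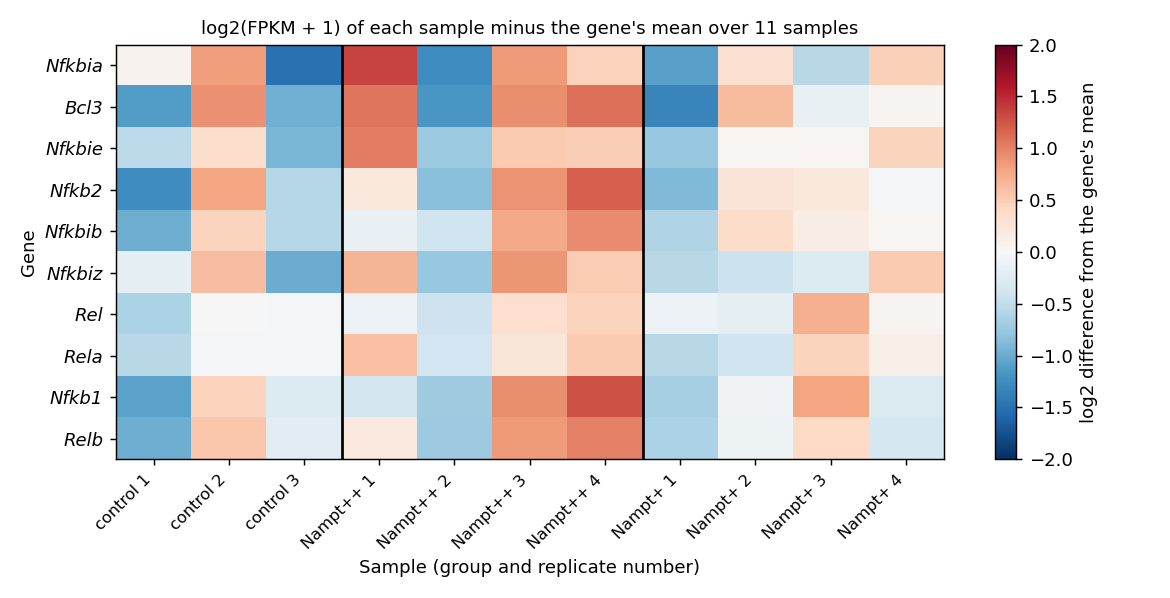
Colour gives log2(FPKM + 1) of each gene (rows) in each sample (columns, black lines between groups) minus that gene's mean over 11 samples. The low columns are control 1, control 3, Nampt++ rat 2 and Nampt+ rat 1, with mean ranks of 8.4 to 9.6, and they belong to all 3 groups.

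Markers of leukocyte types also varied between samples of the same group. The summed FPKM of 13 neutrophil markers, all found and none at 0 throughout, was 7464, 14307 and 2171 in controls, 40486, 3019, 12925 and 9320 in Nampt++ samples, and 3835, 15718, 5264 and 14440 in Nampt+ samples. The extremes were the samples where Nfkbia was highest (Nampt++ rat 1) and lowest (control 3). In both, S100a8 and S100a9 gave most of the neutrophil sum, with 12479 and 25724 FPKM in Nampt++ rat 1 and 638 and 1323 FPKM in control 3. Over the whole family the order of samples differed from that of the neutrophil sums. Nampt++ rat 4, with a mean rank of 2.2 over the 10 genes, had a lower neutrophil sum than Nampt+ rats 2 and 4 (mean ranks 6.2 and 5.5). The 11 monocyte markers found of 12, with Cd163 at 0 throughout, summed to 4339 to 10689 FPKM in controls, 5798 to 12861 in Nampt++ samples and 5536 to 13855 in Nampt+ samples. Lyz2 gave most of the monocyte sum, with means of 6580 FPKM in controls, 9213 in Nampt++ and 8122 in Nampt+ samples. The 10 T cell markers found of 11 summed to 558 to 1387 FPKM in controls, 696 to 1091 in Nampt++ samples and 393 to 1266 in Nampt+ samples, with the lowest values in Nampt+ rat 2 and in control 2. In bulk RNA fewer cells of a type and less RNA per cell cannot be told apart, and the part of cell makeup in the levels of the NF-kappa B genes was not tested.

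The comparison of Nampt+ with Nampt++ samples asks how the transcripts differed between the later and the earlier status of the same rats. None of the 10 NF-kappa B genes met the criteria for a changed gene, a ratio of mean FPKMs over 2 or under 0.5 with an unadjusted p under 0.05, which 72 of 11219 genes tested did (0.642%). In none of the 10 did the groups fail to overlap, as they did in 0.41% of all genes. Group means were lower in Nampt+ samples for 9 genes. Nfkbia had a mean of 2137 ± 1239 FPKM in Nampt++ and 1311 ± 609 FPKM in Nampt+ samples (SD, n = 4 each), a fitted log2 fold change of -0.43 (SE 0.60, 95% interval -1.79 to 0.94). Bcl3 had 236 ± 116 against 139 ± 67.8 FPKM (log2 fold change -0.41, SE 0.62, interval -1.82 to 1.00). These intervals reach from more than a 3-fold lower to about a 2-fold higher level, and the values within them could not be told apart with 4 rats. They come from a fit that does not pair the 2 samples of a rat.

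Rela and Rel had the narrowest intervals of the 10 genes in this comparison. Those of the subunits Nfkb1 (-1.41 to 0.79) and Nfkb2 (-1.45 to 0.76) were wider than those of Nfkbib, Nfkbie and Nfkbiz. Rela gave a log2 fold change of -0.23 (interval -0.80 to 0.34) and Rel, the only gene of the 10 with a value above 0, of 0.15 (interval -0.41 to 0.72). The remaining values lay between -0.12 for Nfkbib and -0.45 for Nfkbiz, against a median of -0.00021 over all genes tested. By edgeR's quasi-likelihood test the adjusted p was 0.9996 for each of the 10, no gene of the family had an unadjusted p under 0.05 by edgeR, limma or DESeq2, and the exact permutation p of log2(FPKM + 1) ranged from 0.257 (Rela) to 0.943 (Rel), where 0.0286 is the smallest possible. Over all genes edgeR gave 0 at an adjusted p under 0.05 and 256 at an unadjusted p under 0.05, and DESeq2 gave 5 at an adjusted p under 0.05.

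Within single rats the differences were large and opposed. From Nampt++ to Nampt+ status Nfkbia went to 0.184 of its level in rat 1, 2.95 in rat 2, 0.375 in rat 3 and 1.01 in rat 4. Bcl3 went to 0.188, 3.52, 0.473 and 0.480 of its level in the same rats. The folds of rat 2 take its samples as labelled, although its Nampt was higher in the Nampt+ sample (14.3 FPKM) than in the Nampt++ sample (10.1 FPKM), and an exchange of these samples, which would turn the folds, was not tested. Il1a, described with the other genes of the pathway, was lower in the Nampt+ sample of rat 2 as labelled. It was named because it met the criteria under these labels, so its values cannot decide on an exchange. All 10 genes were lower at Nampt+ status in rat 1, 8 of 10 in rats 3 and 4, and 1 of 10 (Rela) in rat 2. With haemoglobin genes left out of the library totals, the counts were 8, 0, 8 and 7 of 10 for rats 1 to 4. The sign-flip permutation over the 4 rats, exact and two-sided, gave p of 0.375 to 1.0 for the 10 genes, and cannot go below 0.125.

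**Figure D3:**
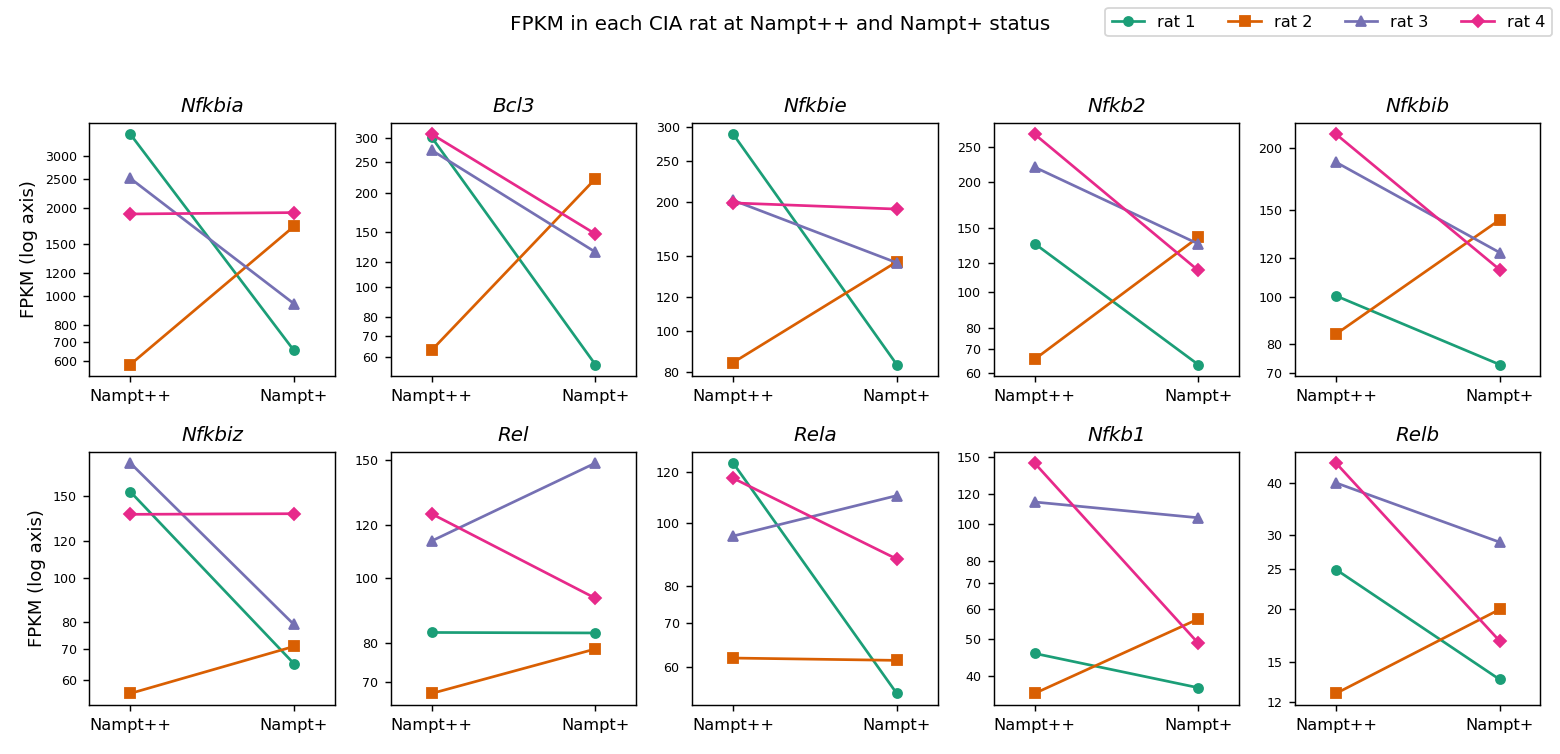
Each line joins the FPKM (log axis) of a gene in the Nampt++ and Nampt+ sample of the same rat, with a colour and marker for each of the 4 rats. Rat 2 (squares) goes up in 9 of 10 panels where rat 1 (circles) goes down, 2.95-fold for Nfkbia where rat 1 reaches 0.184 of its first level.

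Leaving out both samples of a rat, a choice made after these values were seen, changed the count for rat 2. Without rat 2, whose Nampt++ sample had the lowest Nampt, Nfkbia (log2 fold change -1.299, unadjusted p = 0.0260 by edgeR, adjusted p = 0.379) and Bcl3 (-1.51, unadjusted p = 0.0029 by edgeR, adjusted p = 0.344) met the criteria, as did 332 of 11408 genes (2.91%). All 10 genes then had values below 0. Without the Nampt+ sample of rat 2 alone Bcl3 met the criteria (-1.21, unadjusted p = 0.0466 and adjusted p = 0.720 by edgeR, 1.45% of all genes called), and without its Nampt++ sample alone none of the 10 did (1.45%). Without rat 1, 3 or 4 none of the 10 met them (1.29%, 0.475% and 0.515% of all genes did), and without rat 1 the value of Nfkbia turned to 0.16 and that of Bcl3 to 0.01. Rat 4, in which Nampt was also no lower at Nampt+ status, had lower Bcl3 and Nfkb2 at that status and level Nfkbia. The neutrophil marker sum was lower at Nampt+ status in rats 1 and 3 and higher in rats 2 and 4. In rat 4 it was 9320 FPKM at Nampt++ and 14440 FPKM at Nampt+ status. Of the 10 genes 8 were lower in that rat, Nfkbie by little (0.967 of its level), and Nfkbia (1.01) and Nfkbiz (1.003) were level. The part of cell makeup in these values was not tested.

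The comparison of Nampt++ samples with controls asks what marks the early stage of CIA. None of the 10 genes met the criteria, against 77 of 11219 genes (0.686%), and none had groups without overlap (1.1% of all genes). Fitted log2 fold changes were above 0 for all 10, from 0.23 for Rel to 0.51 for Nfkb1, Nfkbie and Bcl3, with a median of 0.0018 over all genes tested. Nfkbie had 194 ± 84.0 FPKM in Nampt++ samples (SD, n = 4) and 118 ± 55.8 FPKM in controls (SD, n = 3), a log2 fold change of 0.51 (SE 0.51, interval -0.67 to 1.70). Rela had 99.6 ± 27.9 against 71.2 ± 14.5 FPKM, a log2 fold change of 0.39 (interval -0.26 to 1.04). Every interval included 0. The adjusted p by edgeR was 0.9999 for each gene, and exact permutation p ran from 0.2 (Rela) to 0.514 (Nfkbia).

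This comparison turned on control 2, the control with the highest level of each of the 10 genes. Without it Nfkb2 (log2 fold change 1.57), Relb (1.23), Nfkbib (1.2998), Nfkbie (1.24) and Bcl3 (1.86) met the criteria, together with 462 of 11303 genes (4.09%), at adjusted p of 0.546 by edgeR for each of the 5. The 462 genes included more higher than lower ones (71.2% higher, against 48.1% of the 77). Control 2 had the highest sums of neutrophil and monocyte markers and the lowest sum of T cell markers among the 3 controls. It also had their highest haemoglobin share (30.9% of reads, against 30.1% in control 1). The part of cell makeup and of haemoglobin in these counts was not tested, and the fit without control 2 rests on controls 1 and 3 alone. Without the Nampt++ sample of rat 2, 184 of 11273 genes (1.63%) and none of the 10 met the criteria.

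**Figure D4:**
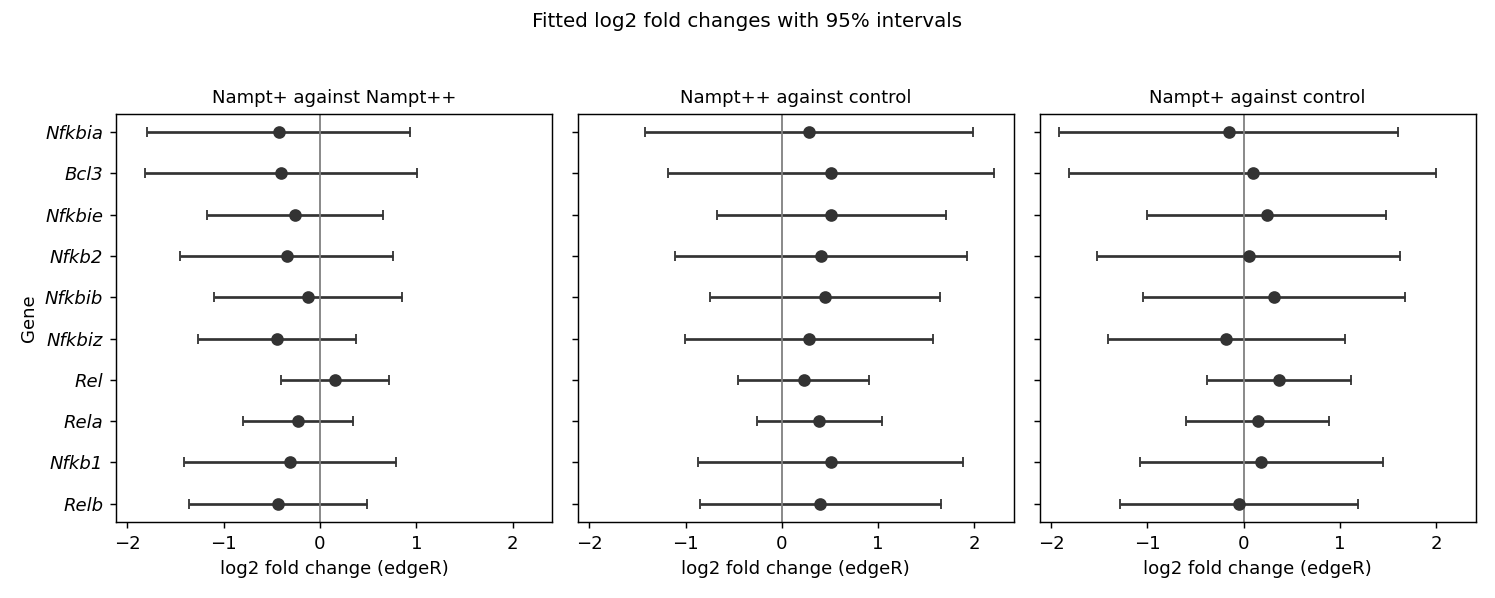
Points give the log2 fold change fitted by edgeR (horizontal axes) of each gene in the 3 comparisons, and bars its 95% interval, with a line at 0. Every bar crosses 0, and the bars of Rel and Rela are the shortest, from -0.41 to 0.72 and from -0.80 to 0.34 for Nampt+ against Nampt++.

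Between Nampt+ samples and controls 7 of the 10 values lay above 0 and 3 below. None of the 10 genes met the criteria, which 56 of 11269 genes did (0.497%), and none had groups without overlap (0.444%). This comparison shares the controls with the one before and the Nampt+ samples with the first. Rel had the highest value, 0.37 (interval -0.38 to 1.11), from 101 ± 32.4 FPKM in Nampt+ samples (SD, n = 4) and 78.4 ± 18.0 FPKM in controls (SD, n = 3). Nfkbiz (-0.18), Nfkbia (-0.16) and Relb (-0.05) lay below 0, and Bcl3 (0.09) and Nfkb2 (0.05) near it. The adjusted p by edgeR was above 0.999 for each gene and exact permutation p ran from 0.457 to 1.0. Leaving out the Nampt+ sample of rat 2 brought 9 of the 10 values below 0, leaving out control 2 brought all 10 above it, and in neither case was any of the 10 called (75 of 11422 genes, 0.657%, and 136 of 11350 genes, 1.2%).

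The width of these intervals followed the spread of each gene between samples of a group. On log2 CPM (counts scaled to library size) without haemoglobin genes, the SD within groups was 1.00 for Nfkbia and 1.00 for Bcl3, larger than in 95.2% and 95.1% of the 4923 genes averaging 10 FPKM or more, whose median SD was 0.369. Nfkb2 (0.80) and Nfkb1 (0.77) followed, then Relb (0.65), Nfkbiz (0.63), Nfkbib (0.63) and Nfkbie (0.59). Rel (0.33) and Rela (0.29) were steadier than the median gene, with 39.4% and 30.3% of genes below them. Nfkbia and Bcl3 thus had the largest spread of the 10 genes, and Rel and Rela the smallest.

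The 10 genes varied together, though not evenly. Over the 11 samples, in which the library total and haemoglobin share of a sample act on all its FPKM values alike, the 45 pairs of genes had a median Pearson correlation of 0.72 on log2(FPKM + 1), from 0.15 (Rel and Nfkbia) to 0.97 (Nfkb2 and Nfkbib), where the median over all pairs of 4711 genes was 0.46. On log2 CPM without haemoglobin genes the medians were 0.70 and 0.12. Nfkb1, Nfkb2, Relb and Nfkbib formed the closest set, with correlations of 0.90 to 0.97 on the log2(FPKM + 1) scale. Nfkbia was close to Nfkbie (0.92) and Nfkbiz (0.91) but had only 0.36 with Nfkb1 and 0.49 with Rela. Bcl3 had 0.71 (Nfkb1) to 0.93 (Nfkb2) with the genes of the closest set. With Nfkbia, Nfkbie and Nfkbiz it had 0.81 (Nfkbiz) to 0.92 (Nfkbie). These sets were picked after their values were seen and are given as a description.

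The genes whose pattern over the 11 samples was most like that of a member, among 4711 averaging 10 FPKM or more, differed between the members. For Nfkbia they were LOC100911825 (r = 0.98) and Il1b (0.98), which encodes interleukin 1 beta and ran from 658 FPKM in control 3 to 6238 FPKM in the Nampt++ sample of rat 1. For Nfkb2 they were Snx11 and Birc3 (0.98 each), and for Relb Birc3 (0.98), the ubiquitin ligase cIAP2 that restrains the alternative pathway, and Mlec (0.96). For Nfkb1 they were Dot1l and Hivep1 (0.96 each), for Nfkbib Nfkb2 itself (0.97) and Ebi3 (0.97), and for Nfkbie Plekhb2 and AABR07021402 (0.99 each). Bcl3 was followed by Slc15a3 (0.99) and Marcks (0.98), Nfkbiz by Grk5 (0.96) and Gab2 (0.95), Rel by Nol10 (0.94) and Orai2 (0.93), and Rela by Tmem127 (0.97) and Dazap2 (0.96). With haemoglobin genes left out, Il1b became the first for Nfkbia (0.98), Birc3 the first for Nfkb2 (0.98) and Etf1 the first for Relb (0.98).

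The balance of inhibitor to subunit transcript also differed between samples of a group. The FPKM of Nfkbia was 6.16 to 31.1 times that of Rela in controls, 9.45 to 28.7 times in Nampt++ samples and 8.55 to 28.1 times in Nampt+ samples. Bcl3 to Rela ranged from 0.920 to 3.39, 1.02 to 2.86 and 1.04 to 3.61 in the same groups. Rel to Rela was held within 1.06 to 1.12 in controls, 0.671 to 1.19 in Nampt++ samples and 1.06 to 1.52 in Nampt+ samples. Nfkb2 was 1.303 to 2.97 times Nfkb1 over the 11 samples, and Nfkbia 6.53 to 14.9 times Nfkbie. All of these ranges overlapped between groups, and a ratio within a sample does not depend on its library size or haemoglobin content.

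Of the other genes of the pathway, few met the criteria, as was so for all genes tested (0.642%, 0.686% and 0.497% in the 3 comparisons). At such shares a count of 0 in a short list says nothing about its genes. Among the 16 kinases of the IkB kinase complex and upstream of it, all 16 were tested and 0 met the criteria in any comparison. The same held for 21 ubiquitin ligases, adaptors and deubiquitinases, all tested, and for 8 further IkB-related genes, of which 6 or 7 were tested. Among 36 genes known as NF-kappa B targets, 31 were tested between Nampt+ and Nampt++ samples and 1 met the criteria, Il1a, against 0.642% of all genes. This gene of interleukin 1 alpha was 6.14, 8.69, 8.06 and 11.3 FPKM for rats 1 to 4 at Nampt++ status and 3.15, 2.42, 4.99 and 3.48 FPKM at Nampt+ status, without overlap, and fell by 1.22 on the log2 scale (SE 0.24, adjusted p = 0.9996 by edgeR). Its group means of 8.55 and 3.51 FPKM lie below the stricter filter of 10 FPKM, under which it was not tested. As its groups did not overlap, it was necessarily lower in each of the 4 rats, which adds nothing to the call. In rat 2 Nfkbia and Bcl3 were higher.

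Of the 31 target genes, 27 had values below 0 in that comparison, with a median log2 fold change of -0.30. Of all genes tested 49.96% were above 0 (median -0.00021), and 50.4% and 49.3% in the comparisons of Nampt++ and Nampt+ samples with controls. The target genes were measured in the same few samples and do not count as replicates. Il1b (-0.38, SE 0.65), Tnf (-0.94, SE 0.46), Icam1 (-0.59, SE 0.52) and Sod2 (-0.58, SE 0.50) did not meet the criteria, and Cxcl2 (0.41, SE 0.57) lay above 0. Between Nampt++ samples and controls 22 of 32 targets were above 0 (median 0.30) and 0 met the criteria. In that comparison 1 target, Tnf, had groups without overlap (1.1% of all genes), at 24.4 to 118 FPKM in Nampt++ samples and 16.1 to 23.7 FPKM in controls. Between Nampt+ samples and controls 13 of 31 targets were above 0 (median -0.08) and 0 met the criteria. The neutrophil markers had a median log2 fold change of -0.28 between Nampt+ and Nampt++ samples, with 5 of 11 above 0. Between Nampt++ samples and controls the median was 0.68, with 8 of 11 above 0. Between Nampt+ samples and controls the neutrophil median was 0.43, with 11 of 11 above 0, while that of the target genes was -0.08. In each comparison 0 of 11 tested met the criteria, and the part of neutrophil markers in the values of the target genes was not tested.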

How the data were processed

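RNA-seq was done on WBCs of 4 CIA rats at Nampt++ and at Nampt+ status and of 3 normal healthy controls. The authors' processing notes name cutadapt 1.9, HISAT2 2.0.4 and StringTie 1.3.4, and the genome build and the counting rule are not given in the sources used here, so reads shared by overlapping genes could not be assigned. The counts are whole numbers of reads per gene as deposited, and the FPKM values, scaled by transcript length and library total, are also those the authors deposited. An FPKM of 0.0001 with a count of 0 was read as 0.

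The counts were tested with edgeR 4.0.16 (quasi-likelihood test, TMM) in R 4.3.3, a pair of groups at a time, leaving out genes that averaged less than 1 FPKM. Called genes had mean FPKMs more than 2-fold apart (ratio over 2 or below 0.5) with p below 0.05 before adjustment. Adjusted p values are by Benjamini-Hochberg over all genes tested, and p values of edgeR, limma and DESeq2 with groups of 3 or 4 rats come from fits across all genes. For single genes log2(FPKM + 1) was also permuted between the groups (exact, two-sided), 30 tests in all, of which the unadjusted p is given. The fits were tested on simulated data whose spread between samples was capped (dispersion of at most 0.1). That test therefore does not cover genes as widely spread as Nfkbia and Bcl3. Alternatives were limma 3.58.1 on log2(FPKM + 1) and log2(FPKM + 0.1), DESeq2 1.42.0, no filter or one at a mean of 10 FPKM, scaling by the upper quartile, leaving out 12 haemoglobin genes, all groups in one fit, the fitted fold, the rat as a replicate block and leaving out each sample. Leaving out both samples of a rat was added after seeing the data. The genes named are the 10 members, pathway genes called, and the 2 genes most like each member, and target genes that did not meet the criteria were named after their values were seen. Members and lists were chosen with earlier results of these data known.

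Total counts of 65340027 to 85819418 leave the number of rats, not depth, as the limit of precision. Same-numbered Nampt++ and Nampt+ samples are the same rat by the deposited sample descriptions, and how they departed from their group means, gene by gene, correlated at -0.27, -0.24, 0.23 and 0.09 for rats 1 to 4. Control numbers pair with nothing. Columns of GO and KEGG annotation and the study's PCR, protein and metabolite measurements were not used here. Other lists checked were markers of B cells, NK cells, erythroid cells, platelets, basophils and mast cells, and immediate early genes.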

Additional observations from a re-analysis of the deposited data

Results flagged for a closer look

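Of 20 sets of 4 samples tested (10 genes in the Nampt++ and the Nampt+ group), chance is expected to give about 1 in which the lowest or highest sample lies this far from the others, and 1 was found. Bcl3, the nuclear IkB protein that works with p50 and p52, was 62.9 FPKM in the Nampt++ sample of rat 2, while the other 3 Nampt++ samples had 273 to 308 FPKM. The gap to the nearest of them was 0.859 of the whole range of the group. The sample also had the lowest Nampt (10.1 FPKM), the lowest neutrophil marker sum of the Nampt++ group (3019 FPKM) and the highest haemoglobin share of that group (37.3% of reads), and the part of these in its Bcl3 value was not tested.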

How the results depend on the processing

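None of the 10 NF-kappa B genes was called under any alternative that kept all samples. Leaving out 1 sample at a time gave 0 to 1 of them for Nampt+ against Nampt++ (Bcl3, without the Nampt+ sample of rat 2), 0 to 5 for Nampt++ against control (5 without control 2) and 0 for Nampt+ against control. Leaving out both samples of a rat, chosen after seeing the data, gave 2 without rat 2 and 0 without rats 1, 3 or 4.

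Counts over all genes moved more, from 72 for Nampt+ against Nampt++ to 295 with no filter, 19 at a mean FPKM of at least 10, 144 without rat 1, 332 without rat 2 and 58 to 165 with 1 sample left out. With the rat as a replicate block the count was 56 by edgeR and 123 by limma, with 0 of the 10 genes called in either, as without the block. For Nampt++ against control the 77 became 145 and 140 by limma with pseudocounts of 1 and 0.1, 121 by DESeq2, 306 with no filter, 25 at a mean FPKM of at least 10 and 53 to 462 with 1 sample left out. For Nampt+ against control the 56 became 261 with no filter, 14 at a mean FPKM of at least 10 and 49 to 136 with 1 sample left out, with 98 without the Nampt+ sample of rat 1, 112 without control 3 and 136 without control 2. Fewer or more genes were tested where the filter changed, and elsewhere the cause was not tested.

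Directions of single log2 fold changes also turned. For Nampt+ against control, limma with pseudocounts of 1 and 0.1 gave 0.0458 and 0.0528 for Relb and 0.00702 and 0.00818 for Nfkbiz. For Nampt+ against Nampt++, Rela (0.0315), Nfkbia (0.16), Nfkbie (0.18) and Bcl3 (0.0105) turned above 0 without rat 1, Rel below it (-0.0943) without rat 2, Nfkbib above it without rat 3 (0.16) and rat 4 (0.12), and Nfkb1 (0.11) without rat 4. With 1 sample left out, Nfkbib ranged from -0.65 to 0.0876 in that comparison. For Nampt++ against control, Nfkbia ranged from -0.19 to 1.14 and Nfkbiz from -0.12 to 1.06. For Nampt+ against control the ranges were -0.15 to 0.97 for Nfkb1, -0.47 to 1.21 for Nfkb2, -0.0301 to 0.47 for Rela, -0.39 to 0.78 for Relb, -0.73 to 0.71 for Nfkbia, -0.22 to 1.17 for Nfkbib, -0.11 to 0.97 for Nfkbie, -0.58 to 0.60 for Nfkbiz and -0.72 to 1.45 for Bcl3.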

Other observations

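Markers outside the NF-kappa B genes differed between samples as well. Of the lists of other cell types, the mast cell and basophil gene Ms4a2 and the immediate early gene Fosb were called higher in Nampt+ than in Nampt++ samples. In that comparison 0.642% of all genes were called. The adjusted p by edgeR was 0.9996 for both genes, and the groups overlapped in both. Ms4a2 was low, with a mean of 2.34 FPKM in Nampt+ and 0.565 FPKM in Nampt++ samples. The platelet gene Ppbp and the immediate early gene Egr1 were called lower in Nampt++ samples than in controls, and Egr1 also in Nampt+ samples than in controls. Of all genes 0.686% and 0.497% were called in these comparisons. For Nampt++ against control the adjusted p by edgeR was 0.9999 for both genes, with overlap. Egr1 was 561, 834 and 99.4 FPKM in controls 1 to 3, and 56.5 to 136 FPKM in Nampt++ samples. No gene of the neutrophil, monocyte, T cell, B cell, NK cell or erythroid lists was called in any of the 3 comparisons by edgeR. All 7 erythroid genes tested had values above 0 between Nampt+ and Nampt++ samples (median log2 fold change 0.76) and below 0 between Nampt++ samples and controls (median -0.49), where haemoglobin took 16.2% to 30.9% of reads in controls, 6.84% to 37.3% at Nampt++ status and 14.8% to 42.8% at Nampt+ status. B cell genes (6 of 7 above 0 in the first comparison) and NK cell genes (6 of 6 below 0 in both comparisons with controls) did not meet the criteria.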
